A study of Homo sapiens with 2 samples.

Results

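The genes described here are 36 genes that mark lymphoid cells, granulocytes and monocytes, and the question is which of them gave a signal above background in MEG-01 cells and how their signals compared between control and GAS2DN-expressing cells. They were picked by name as lineage markers, by a rule that uses no value of these arrays although earlier results of the arrays were known, and they are 36 of the 19775 genes that had a probe set of their own. By lineage, 12 are T and NK cell genes, 8 are B cell genes, 5 are granulocyte genes and 11 are monocyte genes. Together they had 71 probe sets, where a probe set is a group of short probes that read the same transcript. MEG-01 is a megakaryoblastic line established from chronic myeloid leukemia (CML) in blast crisis and carries BCR-ABL. It was transduced with a lentivirus that carried Venus, a yellow fluorescent protein, or with one that carried GAS2DN, a truncated and dominant negative GAS2, together with Venus. Both transgenes were driven by the spleen focus forming virus promoter, and the cells, grown in RPMI1640 with fetal bovine serum, were purified by fluorescence-activated sorting. RNA of 3 extracts per condition was pooled in equal amounts and hybridised to 1 Affymetrix Human Genome U133 Plus 2.0 array per condition, so neither condition was replicated, no test could be made, and ratios have no error between replicates. With a single array on each side their precision is limited.

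Blood cells of different lineages carry different surface receptors, enzymes and transcription factors. T cells recognise antigen through the T cell receptor with its CD3 chains, B cells through surface immunoglobulin with the CD79 chains, and NK cells kill with granule proteins and read HLA through killer receptors. Granulocyte precursors fill azurophil granules with serine proteases and myeloperoxidase, and monocytes carry CD14, lysozyme and the calcium-binding S100 proteins. Megakaryocytes share a progenitor with red cells and use GATA factors, so most of the genes described here are not part of their programme. CML can progress to a blast crisis of myeloid, megakaryoblastic or lymphoid type.

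The deposited values hold no detection calls. Each signal was therefore set against the median signal of its own array, which was 55.6 for Venus and 69.1 for GAS2DN cells. A probe set was taken as above background when it was at or above that median on both arrays. Where a gene had several probe sets, its main probe set was that of highest mean log2 signal, and those ending in _x_at, which can bind related transcripts, were taken only if there was no other. Probes differ in affinity, so a multiple of the array median is not a transcript level, and no order of genes is read from it. As a check of the arrays, 14 of 17 measured megakaryocyte markers were above background, with medians over the list of 10.9 and 11.2 times the array median in Venus and GAS2DN cells. GATA2 and TAL1, transcription factors of this lineage, had signals of 8788 and 8674 in Venus cells and 11067 and 9481 in GAS2DN cells, and PF4, PPBP and VWF were the 3 markers that did not pass. GAS2 itself was read by 1 probe set with signals of 24.3 and 34.7, both below the median. The study detected GAS2 protein in MEG-01 cells by immunofluorescence. It also measured the GAS2 transcript in these cells by quantitative RT-PCR, where knockdown lowered it. Whether this probe set reads the GAS2DN transgene was not examined, so it is no check of transgene expression.

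By the main probe set 6 of the 36 genes, 16.7%, were above background, against 56.4% of all 19775 genes. These 6 were CD2 and CD5 of T cells, CD79A of B cells, CTSG of granulocytes, and LYZ and VCAN of monocytes. In such bulk RNA a few cells with much of a transcript and many cells with little of it cannot be told apart. The share was 2 of 12 for T and NK cell genes, 1 of 8 for B cell genes, 1 of 5 for granulocyte genes and 2 of 11 for monocyte genes. A list of genes of unrelated tissues, such as lens crystallins, pancreatic enzymes and sperm proteins, gave 3 of 25 measured genes or 12%. The brightest of this list were CRYGD, a lens crystallin, with 383 and 285, and TNNI3 with 153 and 212 in Venus and GAS2DN cells. These signals lay within the range of the main probe sets of the 6 lineage genes. Passing the median alone therefore does not show that a gene was expressed. No test was made between the lists.

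**Figure D1:**
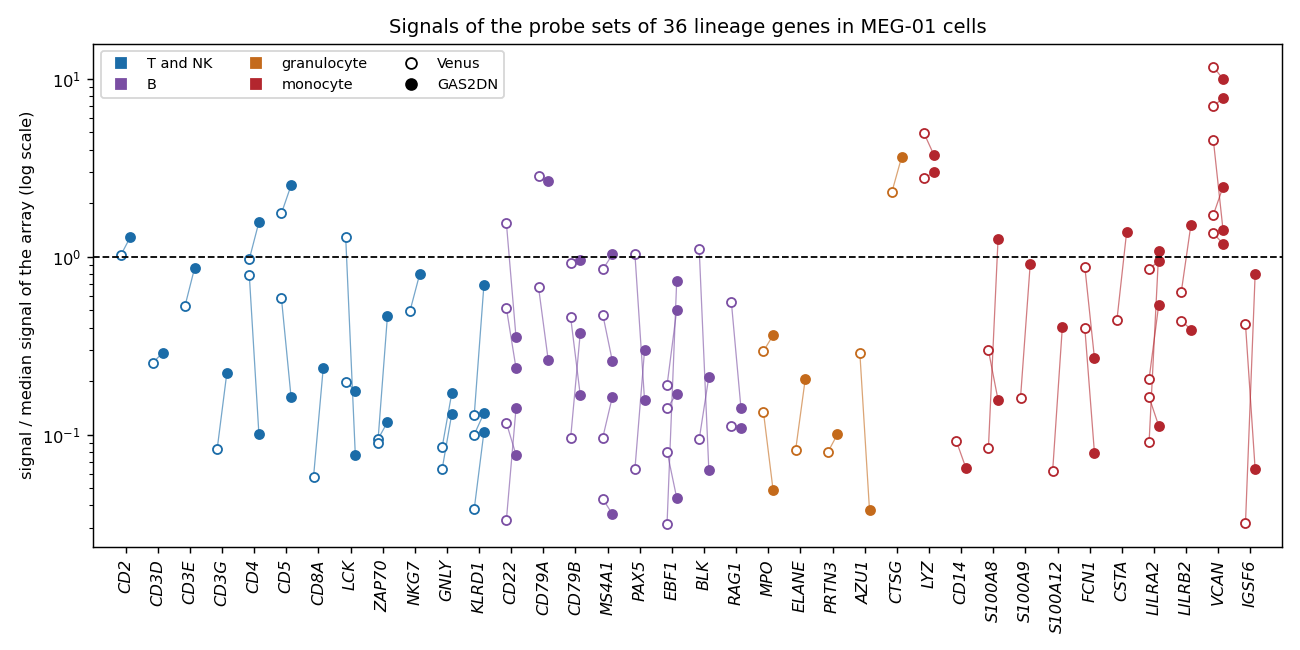
Signal of each of the 71 probe sets of the 36 lineage genes as a multiple of the median signal of its array (log scale), with open circles for Venus and filled circles for GAS2DN cells, a line joining the values of the same probe set, colours for lineages and a dashed line at the array median. Only CD2, CD5, CD79A, CTSG, LYZ and VCAN have a probe set with both circles at or above the line.

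Counted by probe sets, 11 of 71 were at or above the median on both arrays, against 49.9% of all 41091 probe sets assigned to a single gene. VCAN alone accounted for 5 of the 11 and LYZ for 2. A further 10 probe sets passed on 1 array only and 50 on neither. When at least 2 times the median was required on both arrays, 4 genes passed, CD79A, CTSG, LYZ and VCAN. At percentile 75 of each array, 379 and 383, VCAN was the gene that remained. The share of all genes is not given for these stricter thresholds, so the fall in the count is not read as a trait of the lineage genes. The median over all genes was 2.35 and 2.13 times the array median in Venus and GAS2DN cells.

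Other genes of the same lineages were read from lists made for comparison. Of 13 measured other T and NK cell genes 7 were above background, or 53.8%, close to the 56.4% of all genes and unlike the 2 of 12 described here, a difference for which no test was made. Among the 7 were LAT, an adaptor of T cell receptor signalling, with 4206 and 4768, and PRF1, perforin, with 1306 and 1664 in Venus and GAS2DN cells. LAT is also used by platelet collagen signalling. Other B cell genes passed in 3 of 11 or 27.3%, with the adaptor BANK1 at 959 and 994 and the surface glycoprotein CD24 at 263 and 264. Other granulocyte genes passed in 4 of 13 or 30.8%, with LCN2, a siderophore-binding granule protein, at 1364 and 1661 and FUT4, the fucosyltransferase that makes the CD15 epitope, at 664 and 920.2. Other monocyte genes passed in 3 of 15 or 20.0%, with FCER1G, a signalling chain of Fc receptors and of platelet GPVI, at 1078 and 1476 and CSF1R, the receptor for M-CSF, at 67.6 and 91.7. CSF1R thus passed narrowly, at 1.22 and 1.33 times the array median. The genes named from each list are its brightest and are examples only.

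**Figure D2:**
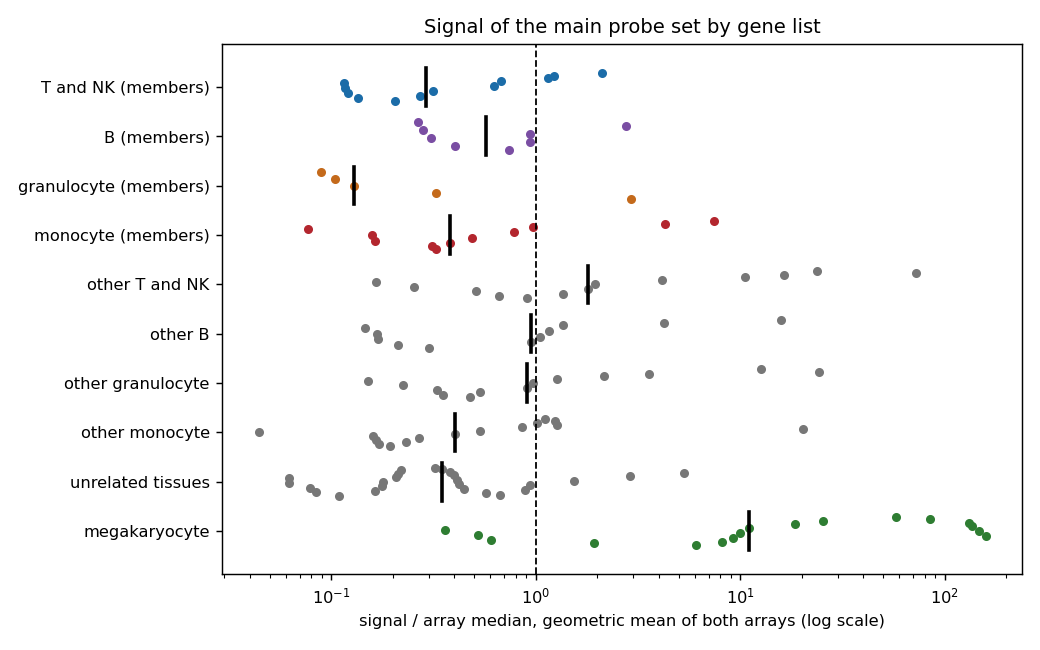
Signal of the main probe set of each gene as a multiple of the array median (geometric mean of both arrays, log scale) for the 4 lineages described here, the other genes of these lineages, genes of unrelated tissues and megakaryocyte markers, with the median of each list as a black bar. The 4 lineage medians lie below 1, as does that of unrelated tissues, while 14 of 17 megakaryocyte markers lie to the right of the dashed line.

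To show what lies before these genes, the promoters of 5 of them were read from RefSeq windows (GRCh38.p14). They belong to CD2, CD79A, CTSG and VCAN, which were above background in their lineages and had a window, and to S100A8, the gene with the largest log2 ratio of a main probe set. Each line holds the 250 bases before the transcription start on the gene's strand, 5′ to 3′. Capitals mark matches on either strand to the words AGATAA and TGATAA for GATA factors, GAGGAA for PU.1 and TTGCNNAA for C/EBP factors, which did not overlap in these windows. The windows are CD2 at chr1:116754180-116754429 (+), CD79A at chr19:41877029-41877278 (+), CTSG at chr14:24576251-24576500 (-), VCAN at chr5:83471494-83471743 (+) and S100A8 at chr1:153391189-153391438 (-).
CD2: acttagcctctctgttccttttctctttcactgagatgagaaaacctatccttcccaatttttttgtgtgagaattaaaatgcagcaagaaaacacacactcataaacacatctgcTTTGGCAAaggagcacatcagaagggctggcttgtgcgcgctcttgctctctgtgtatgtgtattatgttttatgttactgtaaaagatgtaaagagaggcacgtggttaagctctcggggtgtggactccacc
CD79A: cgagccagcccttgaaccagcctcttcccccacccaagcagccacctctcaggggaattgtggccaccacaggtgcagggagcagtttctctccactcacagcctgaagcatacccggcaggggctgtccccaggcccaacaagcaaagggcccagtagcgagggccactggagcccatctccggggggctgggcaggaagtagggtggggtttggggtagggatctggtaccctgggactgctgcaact
CTSG: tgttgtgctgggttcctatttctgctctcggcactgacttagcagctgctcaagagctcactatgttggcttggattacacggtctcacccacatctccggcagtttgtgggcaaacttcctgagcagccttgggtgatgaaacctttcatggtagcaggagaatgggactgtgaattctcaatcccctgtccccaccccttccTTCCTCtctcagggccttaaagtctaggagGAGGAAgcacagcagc
VCAN: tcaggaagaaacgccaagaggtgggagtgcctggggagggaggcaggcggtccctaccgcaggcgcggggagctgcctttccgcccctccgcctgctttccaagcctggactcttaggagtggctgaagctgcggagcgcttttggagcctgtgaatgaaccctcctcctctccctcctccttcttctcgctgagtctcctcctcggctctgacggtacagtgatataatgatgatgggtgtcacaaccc
S100A8: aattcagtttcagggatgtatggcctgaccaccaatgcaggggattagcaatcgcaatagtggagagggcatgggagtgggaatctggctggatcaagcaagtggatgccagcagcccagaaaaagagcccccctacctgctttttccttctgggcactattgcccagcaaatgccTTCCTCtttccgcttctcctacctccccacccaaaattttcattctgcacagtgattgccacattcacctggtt

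In CTSG, the capitals lie 46 to 41 and 16 to 11 bases before the start and read GAGGAA on opposite strands. S100A8 had the same letters on the other strand 74 to 69 bases before the start, and CD2 had a C/EBP match 134 to 127 bases before it. The windows of CD79A and VCAN held no match to these letters. A window was found for 24 of the 36 genes. GAGGAA or its reverse complement was present in 10 of the 24, or 41.7%, against 23.4% of the windows of 27305 genes. TTGCNNAA was present in 5, or 20.8%, against 9.12%, and neither GATA word was found in any of the 24, against 15% of all. The number of CG steps in the 24 windows ranged from 1 in S100A12 and LILRA2 to 27 in PAX5, with a median of 5 against 10 over all windows, and VCAN had 12. These matches describe letters only, and binding was not measured.

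The T cell receptor genes were dim. CD3D, CD3E and CD3G encode the signalling chains of the receptor complex and lie side by side on chromosome 11. CD3D had a signal of 14.1 in Venus and 19.9 in GAS2DN cells, CD3E had 29.5 and 59.8, and CD3G had 4.61 and 15.3. All 6 signals were below the array median, from 0.0828 to 0.867 times of it. CD3G was over 3-fold higher in GAS2DN cells with a ratio of 3.31. CD8A, the co-receptor of cytotoxic T cells, had 3.23 and 16.3, a ratio of 5.05 between signals that were both at most 0.236 times the median.

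CD2, an adhesion receptor of T and NK cells, had 56.7 in Venus and 89.3 in GAS2DN cells in its only probe set. This was 1.02 and 1.29 times the median, so it passed by a narrow margin on the Venus array. CD5, a scavenger-type receptor of T cells and some B cells, had 97.6 and 174 in 206485_at, which was 1.75 and 2.52 times the median. Its other probe set, 230489_at, had 32.5 and 11.2, below the median on both arrays and with the opposite direction. CD4, the co-receptor of helper T cells that is also present on monocytes, had 53.9 and 108 in 203547_at and 44.0 and 6.92 in 216424_at. Its main probe set thus passed on the GAS2DN array only, and its probe sets went in opposite directions.

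LCK, the kinase that phosphorylates the CD3 chains, had 71.7 in Venus and 5.27 in GAS2DN cells in 204890_s_at, which was 1.29 and 0.0763 times the median. The other LCK probe set had 11.0 and 12.2, so that the difference was seen in 1 of the 2. ZAP70, the kinase recruited to phosphorylated CD3 chains, had 5.02 and 32.2 in its main probe set, while the other had 5.22 and 8.13. The NK cell genes were all below the median. NKG7, a granule membrane protein, had 27.5 and 54.9, and GNLY, the granule protein granulysin, had 4.72 and 11.8 in its main and 3.55 and 9.01 in its second probe set. KLRD1, which encodes CD94, had 5.57 and 9.10 in its main probe set and a ratio of 6.65 in 207796_x_at, from 7.16 to 47.6.

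The main probe sets of 11 of the 12 T and NK cell genes were higher in GAS2DN than in Venus cells, LCK being the exception, and the median log2 ratio was 1.001. Over all genes 58.0% were higher and the median was 0.09. Most of these probe sets were dim, and 61.2% of all 6648 genes whose main probe set was below the median on both arrays were higher in GAS2DN cells as well, with a median of 0.43. Of the 12 main probe sets 8 were below the median on both arrays. After signals below the array median were raised to it, the median of the 12 genes was 0.31, which equals the difference between the array medians.

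CD79A, a signalling chain of the B cell receptor, was the B cell gene above background. Its probe set 1555779_a_at had 159 in Venus and 185 in GAS2DN cells, or 2.86 and 2.68 times the median, a ratio of 1.16. The other, 205049_s_at, had 37.6 and 18.2 and was below the median on both arrays. CD79B, its partner chain, had main signals of 51.0 and 66.2, 0.916 and 0.958 times the median, and its other probe sets had log2 ratios of -1.15 and 2.28. MS4A1, which encodes CD20, had 47.2 and 71.1 in 228592_at, 0.848 and 1.03 times the median, while its 3 other probe sets had signals of 2.42 to 26.3.

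The transcription factors that set the B cell programme were at or under the median. PAX5 had 57.7 in Venus and 10.8 in GAS2DN cells in 206802_at, 1.04 and 0.156 times the median, and 3.56 and 20.6 in 221969_at. The ratios were 0.186 and 5.79. EBF1 was below the median in all 4 probe sets on both arrays. Its probe set 232204_at had 1.76 and 50.3, which is a ratio of 28.7, and the log2 ratios were -0.55, 0.59 and 1.71 in the others. RAG1, the recombinase of B and T cell precursors, had 31.1 and 9.73 in its main and 6.18 and 7.48 in its other probe set.

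BLK, a SRC family kinase of B cells, had 61.7 in Venus and 4.38 in GAS2DN cells in 210934_at and 5.23 and 14.6 in 206255_at. CD22, an inhibitory co-receptor that binds sialic acid, had 86.2 and 24.4 in 38521_at and was below the median in the other 3 probe sets, whose log2 ratios were -0.81, -0.28 and 2.40. Both genes were thus at or above the median on the Venus array only and in a single probe set. The main probe sets of 4 B cell genes were higher and those of 4 were lower, against 58.0% higher over all genes, with a median log2 ratio of -0.73. In each of the 8 genes the probe sets went in both directions. The median turned to 0.29 when low signals were raised to the array median and to 0.052 when the array median was added to all signals.

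Of the granulocyte genes CTSG, cathepsin G, a serine protease of azurophil granules, was above background. It had 129 in Venus and 251 in GAS2DN cells in its only probe set, 2.32 and 3.63 times the median, a log2 ratio of 0.96. This ratio lay above the central 90% of all probe sets of similar signal, which ran from -0.78 to 0.81. The other 4 genes were below the median on both arrays in all 5 of their probe sets. MPO, myeloperoxidase, had 16.4 and 25.0 in the main and 7.44 and 3.37 in the other probe set. ELANE, PRTN3 and AZU1, the neutrophil elastase, proteinase 3 and azurocidin genes, are next to each other on chromosome 19. ELANE had 4.55 and 14.2, PRTN3 had 4.42 and 6.92, and AZU1 had 15.9 and 2.60. The 3 neighbours thus went in different directions, and the highest of their 6 signals was 0.286 times the median. The median log2 ratio of the 5 genes was 0.65, with 4 higher, too few to read against the 58.0% of all genes.

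VCAN, the extracellular matrix proteoglycan versican, which is made by monocytes and by many stromal cells, was above background in all 5 probe sets. They had 651 and 690.2 in 221731_x_at, 392 and 538 in 204620_s_at, 252 and 98.1 in 204619_s_at, 95.8 and 171 in 215646_s_at and 75.5 and 81.7 in 211571_s_at, with Venus cells given before GAS2DN cells. The log2 ratio was between 0.08 and 0.83 in 4 of them and -1.36 in 204619_s_at, which lay below the central 90% of probe sets of similar signal, -1.003 to 1.27. The files do not say which transcript variants each probe set reads. LYZ, lysozyme, which is made by monocytes and granulocytes, had 275 and 259 in 213975_s_at and 154 and 206 in 1555745_a_at, log2 ratios of -0.09 and 0.42. VCAN and LYZ were the 2 members with more than 1 probe set in which every probe set was above background.

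CD14, the monocyte co-receptor for lipopolysaccharide, had 5.13 in Venus and 4.48 in GAS2DN cells, 0.0922 and 0.0648 times the median. FCN1, the monocyte lectin ficolin-1, had 48.9 and 18.6 in its main and 22.1 and 5.44 in its other probe set, so both were lower in GAS2DN cells and all 4 signals were below the median. CD14 and FCN1 were thus below the median on both arrays, where VCAN and LYZ were above it.

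The S100 genes code for calcium-binding proteins of monocytes and neutrophils. S100A8 and S100A9 form calprotectin, and S100A12 lies between them on chromosome 1. S100A8 had 4.66 in Venus and 87.0 in GAS2DN cells in 202917_s_at, a log2 ratio of 4.22, above the central 90% of probe sets of similar signal, -3.14 to 4.03. Its other probe set had 16.6 and 10.8, a log2 ratio of -0.62. S100A9 had 8.99 and 62.5, a log2 ratio of 2.80, and S100A12 had 3.49 and 27.7, a log2 ratio of 2.99, each in its only probe set. Both lay inside the central 90% of probe sets of similar signal, -2.54 to 3.21 for S100A9 and -3.39 to 4.36 for S100A12. The main probe sets of the 3 neighbours were all over 3-fold higher in GAS2DN cells, but only that of S100A8 reached the array median there, at 1.26 times. Raised to the array median, S100A8 had a log2 ratio of 0.64, and S100A9 and S100A12 had 0.31 like every gene below both medians.

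CSTA, cystatin A, an inhibitor of cysteine proteases, had 24.6 in Venus and 94.6 in GAS2DN cells in its only probe set, 0.443 and 1.37 times the median and a log2 ratio of 1.94, at the upper edge of the central 90%, which ended at 1.94. With the low signal raised to the median it was 0.77. LILRA2, an activating leukocyte immunoglobulin-like receptor, had 5.04 and 74.0 in 207857_at, and its other 3 probe sets had log2 ratios of 1.70, 0.48 and -0.23. LILRB2, an inhibitory receptor of the same family and of the same cluster on chromosome 19, had 35.1 and 104 in 207697_x_at and 24.4 and 26.9 in 210146_x_at. Both LILRB2 probe sets and 2 of LILRA2 end in _x_at, so part of their signal can come from relatives. IGSF6, an immunoglobulin-type receptor of myeloid cells, had 23.2 and 4.42 in 241068_at and 1.77 and 54.9 in 206420_at, ratios of 0.191 and 31.0, and was below the median throughout. The main probe sets of 7 of the 11 monocyte genes were higher in GAS2DN cells, or 63.6%, near the 58.0% of all genes. Their median log2 ratio was 1.57, and 0.31 with low signals raised to the median.

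Over the 71 probe sets, 18 were over 3-fold higher in GAS2DN cells or 25.4%, against 12.6% of all probe sets, and 9 were over 3-fold lower or 12.7%, against 7.58%. With loess or quantile scaling the counts were 13 higher and 12 lower, where 9.73% and 9.92% of all probe sets were higher and lower by loess and 9.7% and 9.94% by quantile scaling. Signals below the median on both arrays were also more frequent, with 50 of 71 against 16144 of 41091. Of these 50, 15 were over 3-fold higher and 5 lower, where 24.4% and 14.1% of all probe sets of that class were higher and lower. In the third of 10 equal bins of mean signal, with mean signals of 12.5 to 22.7, 35.7% of all probe sets were over 3-fold higher and 25.1% were over 3-fold lower, while in the brightest bin the shares were 0 and 0.146%. Of all 5169 probe sets over 3-fold higher, 3938 were below the median on both arrays, as were 2282 of the 3116 over 3-fold lower. Of the 27 probe sets of the lineage genes beyond 3-fold, 20 were also below the median on both arrays, a similar share. Among the 21 whose brighter signal was at or above its array median, 3 were higher, those of S100A8, CSTA and LILRA2, and 4 were lower, those of LCK, CD22, PAX5 and BLK, where 4.96% and 3.36% of all such probe sets were higher and lower. In all 7 the dimmer signal was below its array median, so they passed only through the array on which they were high, and nothing is read from these counts. Of all 4451 probe sets that reached the median on 1 array only, 27.0% were over 3-fold higher and 17.4% lower. None of the 11 probe sets above background was over 3-fold in either direction. Of all 20496 such probe sets, only 0.151% were over 3-fold higher and 0.293% lower. The log2 ratios of the 11 were -1.36 to 0.96, with 9 of 11 above 0 against 55.5% of the 20496. The 11 belong to 6 genes, of which 5 had a main log2 ratio above 0.

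**Figure D3:**
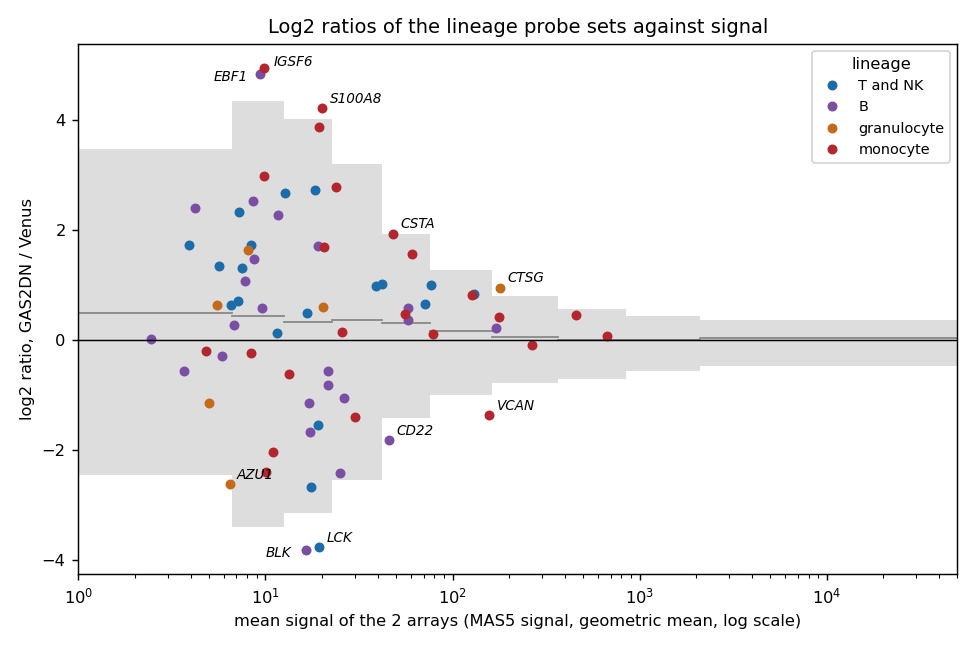
Log2 ratio of GAS2DN to Venus signal against the mean signal of both arrays (geometric mean, log scale) for the 71 probe sets of the lineage genes, coloured by lineage, with the central 90% (grey) and the median (grey line) of all probe sets in each of 10 equal bins of mean signal. The 10 probe sets outside the grey area carry their gene's name, and the area narrows from -3.14 to 4.03 in the third bin to -0.47 to 0.37 in the brightest.

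Set against the central 90% of the log2 ratios in the same bin, 5 probe sets of the lineage genes lay above and 5 below, 14.1% in all, where 10.0% of all probe sets lie outside by construction. Those above belonged to EBF1, CTSG, S100A8, CSTA and IGSF6, and those below to LCK, CD22, BLK, AZU1 and VCAN. CTSG and VCAN were the 2 of these genes in which the probe set was above background.

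The probe sets of the same gene gave the only repeated measure within the arrays. Of the 22 lineage genes with more than 1 probe set, 17 had log2 ratios of both signs, or 77.3%, against 63.9% of 10523 genes with several probe sets. The SD between probe sets of the same gene was 1.98 on the log2 scale for the lineage genes and 1.34 over all genes, and it was 0.40 for the tenth of genes with the brightest probe sets. The widest range was in IGSF6, from -2.39 to 4.95. The genes with 1 direction throughout were GNLY, KLRD1, ZAP70 and LILRB2, higher in GAS2DN cells, and FCN1, lower, and in each of them at least 1 signal of every probe set was below the array median. For S100A9, S100A12, CSTA, CTSG and 10 other genes there was 1 probe set and hence no repeated measure.

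**Figure D4:**
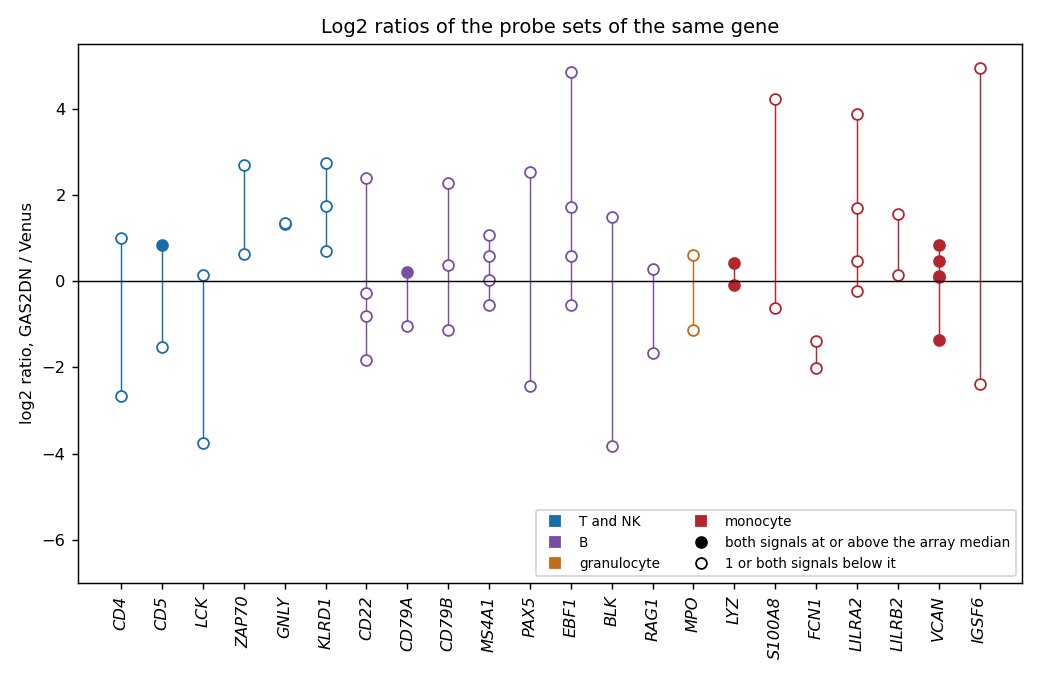
Log2 ratio of GAS2DN to Venus signal of every probe set of the 22 lineage genes with more than 1 probe set, coloured by lineage, filled where both signals were at or above the array median and open otherwise, with a line from the lowest to the highest value of a gene. Lines cross 0 in 17 genes, and LYZ and VCAN are the genes with filled circles throughout.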

How the data were processed

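Signals of 2 arrays of MEG-01 cells were used, 1 per condition (Venus, GAS2DN), each from RNA pooled from 3 extracts. The authors deposited log2 MAS5 signals. MAS5 is named in the submitters' processing notes, with no version. Converted to linear signals each array had a 2% trimmed mean of 500.1. Of 54675 probe sets 62 controls were left out, and the platform's table (annotation of GEO) gave 41091 probe sets for exactly 1 gene. Symbols were updated through the gene identifier for 41037 of them. Log2 ratios are GAS2DN minus Venus, and the 3-fold threshold is that of the study. Bins are 10 equal groups of mean log2 signal.

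All members were described, and from each comparison list the 2 genes with the highest mean log2 signal were named as examples only. The members and comparison lists were chosen with earlier results of these data known. Some listed genes are not analysed here, since no probe set was assigned to them alone. Promoter windows were those of RefSeq, the furthest upstream of each gene, without the 50 bases after the start. Alternatives changed background threshold, dim-signal filter, scaling (centring, loess with span 0.2 and 3 iterations, quantile), low signals and probe set choice. The steps were tested on simulated data. The work was done in Python 3.11.15 with matplotlib 3.10.9, scipy 1.17.1, numpy 2.4.6, statsmodels 0.14.6 and pandas 2.3.3.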

Additional observations from a re-analysis of the deposited data

How the results depend on the processing

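The number of lineage genes above background was 6 by any probe set or after quantile scaling, and 4 at 2 times the median. It was 5 of the 31 genes left once _s_at and _x_at probe sets were dropped, where VCAN had none left. When percentile 75 of both arrays was required it was 1 (VCAN). For all genes the share is given only at the median itself, where it was 56.4%, so the counts at stricter thresholds are not read against it. The counts of probe sets over 3-fold higher and lower, 18 and 9, were 13 to 16 and 10 to 12 under centring, loess or quantile scaling. Of all probe sets 12.6% and 7.58% were higher and lower before rescaling. By loess the shares were 9.73% and 9.92%, and by quantile scaling 9.7% and 9.94%. The counts were 3 and 4 with the brighter signal at or above its array median, where the shares of all such probe sets were 4.96% and 3.36%. With both signals at or above it they were 0 and 0, where the shares of all were 0.151% and 0.293%. They were also 0 and 0 with low signals raised to the median or with the array median added. For these settings and for centring the share of all probe sets is not given, so nothing is read from the counts. For medians over genes a change was set against the SD between probe sets of a gene, 1.34, divided by the square root of the number of genes. This was only a rule for choosing which changes to list, since there are no replicates. It is no error of the medians, because genes are not replicates of a condition, and the SD was 1.98 for the lineage genes. The T and NK cell median of 1.001 moved to 0.31 with low signals raised and 0.52 with the array median added, and the monocyte median of 1.57 to 0.31 and 0.71 in the same way and to 1.09 by the median over probe sets. The B cell median of -0.73 became 0.29 and 0.052 in these ways, -0.18 by the median over probe sets and -1.82 over the genes whose brighter signal reached its array median. CD22, PAX5 and BLK passed that filter only through their Venus signal, so that it sets the direction. The granulocyte median of 0.65 was 0.20 to 0.65 in the settings that kept all 5 genes. It was 0.96 over the genes whose brighter signal reached its array median, which left CTSG alone. With low signals raised to the median 7 genes changed sign, PAX5 to 0.26, BLK to 0.16, and RAG1, AZU1, IGSF6, FCN1 and CD14 to 0.31, where the GAS2DN floor is itself 0.31 higher. By the median over probe sets 7 changed sign, CD4 from 1.01 to -0.83, CD5 from 0.83 to -0.35, CD79A from 0.22 to -0.41, MPO from 0.61 to -0.27, LYZ from -0.09 to 0.17, PAX5 to 0.056 and IGSF6 to 1.28. With the array median added AZU1 turned to 0.0016 and CD14 to 0.28. Under centring, loess and quantile scaling none of the 36 main log2 ratios changed sign, and all moved by less than 1.34. With 1 array per condition no replicate could be left out, and signals below the array median limit every ratio that rests on them.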
